A study of Mus musculus with 8 samples.

Results

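The genes that encode the proteasome were followed in testes of mice null for Miwi, set against wild type (WT) testes, in total RNA and in ribosome footprints. They were chosen by symbol, as every gene named Psma, Psmb, Psmc or Psmd with a number, which gave 39 of the 21949 genes in the deposited tables. Each gene was represented by the transcript with the highest mean count over the 8 libraries. The rule uses names and mean counts and no measured change, although it was set with earlier results of these data known. By their textbook roles the 39 genes fall into 7 subunits of the 20S alpha ring, the testis alpha subunit Psma8, 7 subunits of the 20S beta ring, 4 inducible beta subunits, 6 ATPases and 3 other subunits of the 19S base, 8 subunits of the 19S lid, and 3 chaperones that help assemble the base.

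The proteasome is the protease that degrades proteins tagged with ubiquitin. Its 20S core is a barrel in which outer rings of alpha subunits close over inner rings of beta subunits, 3 of which (Psmb5, Psmb6 and Psmb7) hold the catalytic sites. The 19S particle binds the end of the barrel: its lid and base recognise ubiquitin and remove it, and its ATPases unfold the protein and thread it into the core. Male germ cells make a form of the core in which the alpha subunit PSMA8 takes the place of PSMA7, and cells exposed to interferon replace the catalytic subunits by PSMB8, PSMB9 and PSMB10.

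Both genotypes were C57BL/6 mice at postnatal day 24, the tissue was whole testis, and the null mice lacked Miwi, a PIWI protein of spermatocytes and round spermatids whose gene is Piwil1. From clarified testis lysates, total RNA was sequenced and ribosome-protected fragments (footprints, the pieces of mRNA that a ribosome shields from nuclease) were sequenced, with 2 Miwi-null and 2 WT libraries for each. The labels name no allele, animal or litter, so a p-value compares libraries, whose spread within a group may be partly technical.

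The gene counts summed to 12721796 and 11130954 in the Miwi-null RNA libraries against 15592804 and 13874632 in the WT RNA libraries, and to 11662659 and 28334618 in the Miwi-null footprint libraries against 28054417 and 17735638 in the WT footprint libraries, so that 1 count was worth 0.0353 to 0.0898 CPM (counts scaled to library size). Piwil1 had 3.52 and 2.27 CPM in Miwi-null RNA against 551.5 and 533.2 CPM in WT RNA, as a check of the genotype labels. The 8 markers of late spermatids fell in RNA without exception, to a summed 1924 and 1906 CPM in Miwi-null libraries against 15990 and 15640 CPM in WT libraries, and 6 of the 8 markers of pachytene spermatocytes rose, to 1311 and 1279 CPM against 1006 and 1043 CPM. Markers of other cells moved too, and by assay differently. Summed Leydig cell footprints were 8079 and 9012 CPM in Miwi-null against 2590 and 2487 CPM in WT libraries. Most of that sum was Insl3, with 6102 and 6821 CPM in Miwi-null against 1266 and 1404 CPM in WT footprints. Of the 8 Leydig genes 5 were called higher in footprints, while Cyp11a1 (-0.29) and Lhcgr (-0.55) were below 0. In RNA 4 were called higher and 1 lower (Cyp11a1, -0.87). Summed myoid cell RNA was 173.2 and 172.8 CPM in Miwi-null against 610.1 and 587.8 CPM in WT libraries (7 of 8 lower). Of 8 Sertoli cell markers 5 were lower in RNA and 5 higher in translational efficiency (footprints relative to RNA, median log2 change 0.83), of 8 round spermatid markers 3 were lower in RNA and 5 in footprints, and of 8 spermatogonial markers 4 were lower in RNA. In whole testis, fewer cells of a type and less RNA per cell cannot be told apart, and the part of cell makeup in the results below was not tested. Replicate differences of the footprint libraries ran in opposite directions in the 2 genotypes: over 10170 genes the correlation of the difference between replicates 1 and 2 was -0.81, and 37 of 38 proteasome genes had opposite signs. The median difference between replicates of the proteasome genes was 0.20 on the log2 scale in Miwi-null footprints and 0.19 in WT footprints, against 0.07 in Miwi-null RNA and 0.10 in WT RNA.

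Promoters of the proteasome genes were searched for the motif TGACNNNGC, the core of the antioxidant response element that the transcription factor NRF1 (encoded by Nfe2l1) binds when it raises proteasome genes. RefSeq sequences (GRCm38.p6) of 250 bases before to 50 bases after the start site were held for 34 promoters of 32 of the 39 genes. The motif occurred on either strand in 5 of these 34 promoters (14.7%), against 12.4% of all 32851 promoters in the table. The 5 windows, shown because they place the motif at its distance from the start site, carry the motif or its reverse complement in capitals.
Psmb5, chr14:54618014-54618062, minus strand, 47 bases before the start: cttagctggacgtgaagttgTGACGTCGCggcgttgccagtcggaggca
Psmb6, chr11:70525328-70525376, plus strand, 9 bases before the start: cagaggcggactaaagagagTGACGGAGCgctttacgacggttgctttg
Psmc6, chr14:45329577-45329625, plus strand, 227 bases before the start: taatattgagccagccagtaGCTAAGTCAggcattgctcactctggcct
Psmd12, chr11:107479278-107479309, plus strand, 247 bases before the start: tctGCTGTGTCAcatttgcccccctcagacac
Psmd9, chr5:123228139-123228187, plus strand, 31 bases before the start: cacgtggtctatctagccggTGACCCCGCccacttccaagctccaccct
The CCAAT box, bound by NF-Y, was in 13 of the 34 promoters (38.2%) against 37.4% of all promoters, and GTTGCC, one arm of an RFX motif, in 5 (14.7%) against 12.5%. GTTGCC also stands in the printed Psmb5 window, outside the capitals. All 3 motifs were therefore about as frequent in these windows as in promoters at large, and a match is a description of letters, not of a bound site.

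Levels were compared between genes per coding length, as the authors' deposited FPKM (fragments scaled to coding length and to library total). In RNA the highest subunit was Psmc3, an ATPase, with 469.1 and 460.0 FPKM in Miwi-null libraries and 459.1 and 462.3 FPKM in WT libraries. The lowest of the 31 constitutive subunits was another ATPase, Psmc6, with 26.5 and 24.2 FPKM in Miwi-null libraries and 15.5 and 20.3 FPKM in WT libraries. Although these ATPases sit in 1 ring, their RNA levels thus spanned a ratio of 17.67 and 19.03 in Miwi-null libraries and 29.7 and 22.8 in WT libraries. In footprints the ratio between the highest and the lowest ATPase was smaller, 8.55 and 11.1 in Miwi-null libraries and 6.60 and 6.39 in WT libraries.

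The alpha ring and the lid showed the same narrowing and the beta ring did not. The SD of log2 FPKM over the 7 alpha subunits was 0.50 and 0.51 in Miwi-null footprints and 0.57 and 0.63 in WT footprints, against 0.89 and 0.94 in Miwi-null RNA and 0.87 and 0.91 in WT RNA. Over the 8 lid subunits it was 0.79 and 0.69 in Miwi-null footprints and 0.68 and 0.85 in WT footprints, and between 0.926 and 1.004 in the 4 RNA libraries. The 7 beta subunits were spread more widely in footprints, with an SD of 1.18 and 0.91 in Miwi-null and 0.90 and 1.12 in WT footprints, against 0.80 and 0.79 in Miwi-null and 0.59 and 0.64 in WT RNA. At the ends of that range stood 2 catalytic subunits: Psmb5 was the lowest member of the 20S core in all 4 footprint libraries (99.7 and 135.0 FPKM in Miwi-null, 123.7 and 104.3 FPKM in WT) and Psmb7 the highest (890.2 and 760.4 FPKM in Miwi-null, 785.6 and 939.3 FPKM in WT). Their RNA levels lay closer together, with Psmb5 at 54.5 and 57.8 FPKM in Miwi-null and 61.6 and 70.0 FPKM in WT libraries and Psmb7 at 97.7 and 89.5 FPKM in Miwi-null and 95.8 and 118.0 FPKM in WT libraries. These are descriptions of levels, and the genes were not tested against each other.

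**Figure D1:**
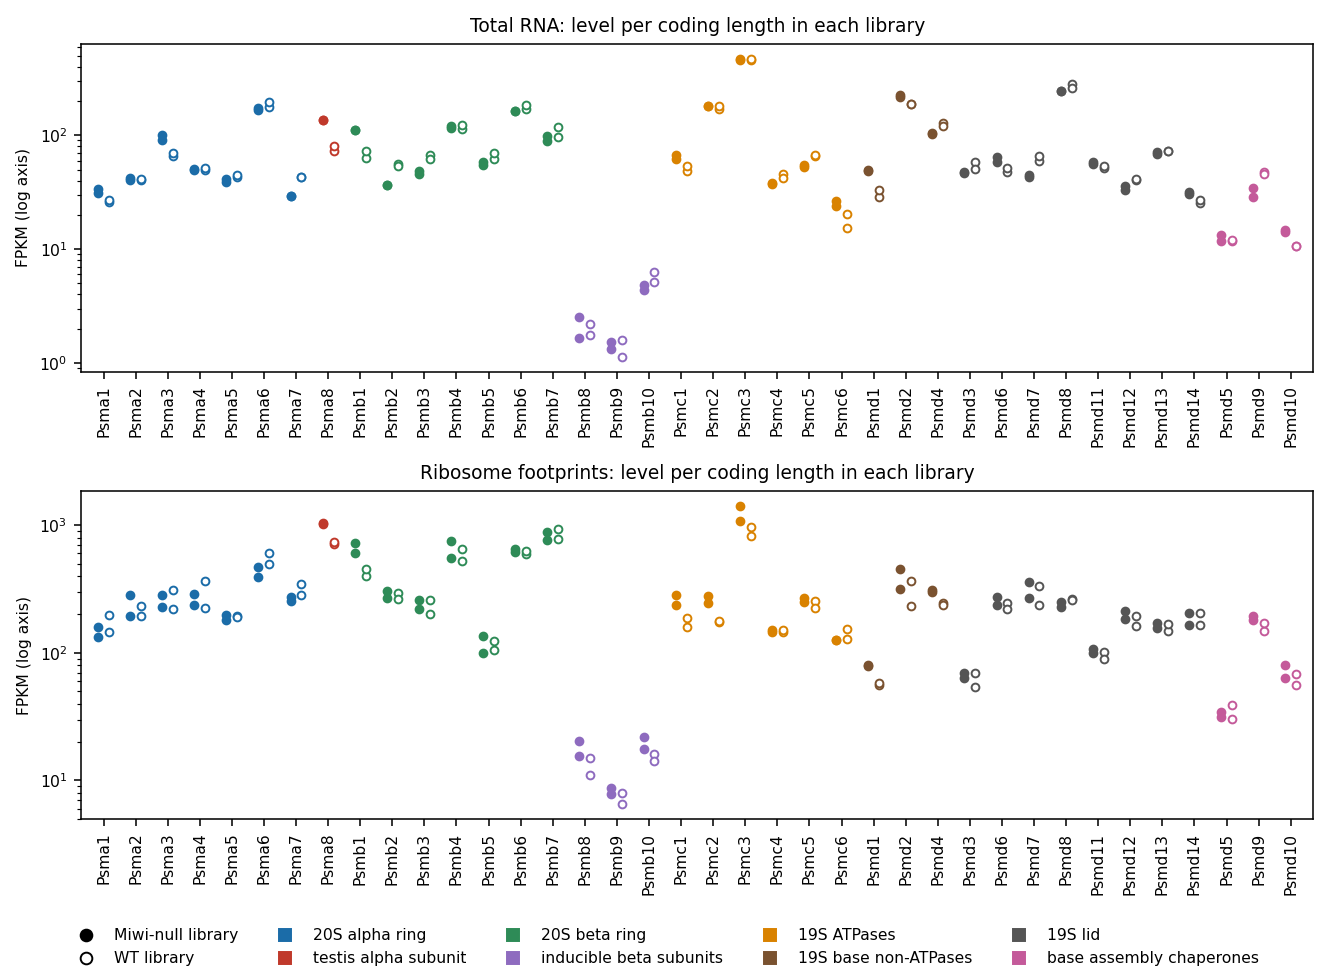
Deposited FPKM of 38 proteasome genes (log axis) in total RNA (upper panel) and ribosome footprints (lower panel); each point is 1 library, filled for Miwi-null and open for WT, coloured by subunit class. Psmc3 is the highest gene in RNA, Psma8 lies above all 7 other alpha subunits in footprints, and the inducible beta subunits Psmb8, Psmb9 and Psmb10 lie lowest in both panels.

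The translational efficiency (TE) of a gene, deposited by the authors as footprint FPKM over RNA FPKM within each replicate number, was high for most proteasome genes. Of 38 genes, 37 and 37 lay above the median of all genes in the Miwi-null pairs and 34 and 35 in the WT pairs. That median was 1.118 and 1.203 in Miwi-null and 1.295 and 1.197 in WT. The 14 constitutive core subunits had a median TE of 4.88 and 4.98 in Miwi-null and 4.68 and 4.80 in WT, above the 8 lid subunits with 3.21 and 3.25 in Miwi-null and 2.98 and 3.12 in WT. The ATPases lay between them, with 4.14 and 3.80 in Miwi-null and 3.24 and 3.44 in WT. The 3 base subunits that are no ATPases (Psmd1, Psmd2 and Psmd4) were lowest, with medians of 2.04 and 1.64 in Miwi-null and 1.90 and 1.94 in WT. Psmd8, a lid subunit, had high RNA and the lowest TE of the lid, 1.02 and 0.93 in Miwi-null and 0.95 and 0.98 in WT. Psmb5 had the lowest TE of the core, 1.83 and 2.34 in Miwi-null and 2.01 and 1.49 in WT, while its catalytic partner Psmb7 had 9.12 and 8.50 in Miwi-null and 8.203 and 7.957 in WT. A TE formed from coding-sequence FPKM also carries what differs between the 2 kinds of library, such as insert size, which averaged 287.6 and 284 nt in Miwi-null RNA, 266 and 244.5 nt in WT RNA and 28.5 nt in all footprint libraries, so the ratio between genes is not a rate of protein synthesis.

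**Figure D2:**
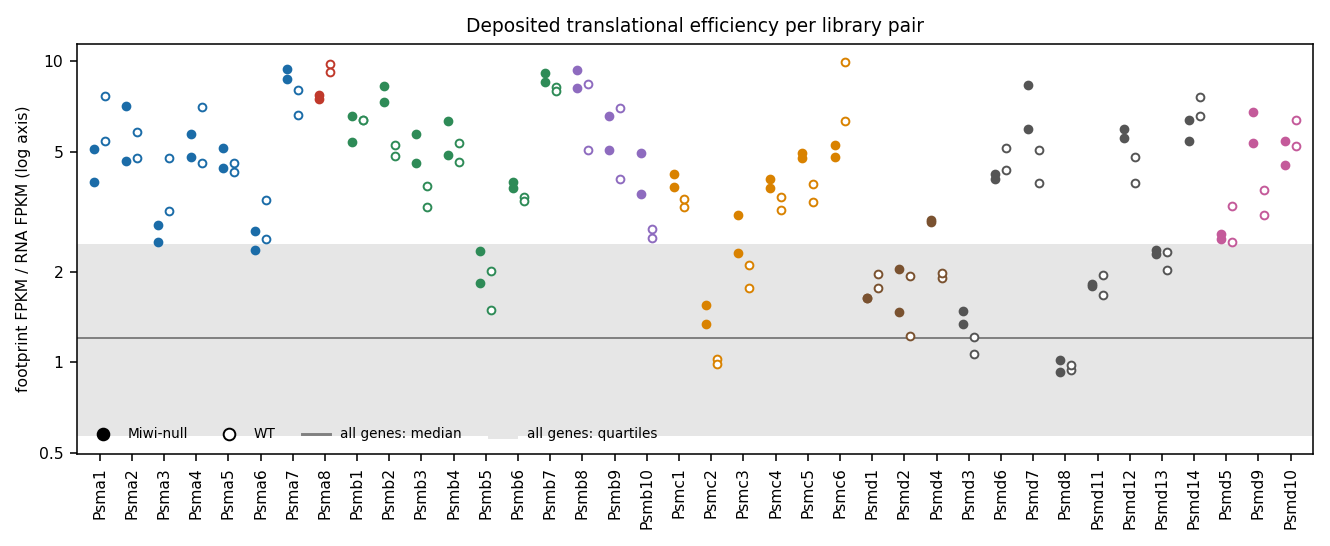
Deposited translational efficiency (footprint FPKM over RNA FPKM, log axis) of 38 proteasome genes, 1 point per replicate number, filled for Miwi-null and open for WT; blue marks the alpha ring, red Psma8, green the beta ring, violet the inducible beta subunits, orange the ATPases, brown the other base subunits, grey the lid and pink the assembly chaperones. The line and band are the mean over the 4 library pairs of the median and quartiles of all genes, and most members lie above the line, with Psmd8 near 1.

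RNA of the proteasome genes moved in both directions in Miwi-null testes and changed little as a set. Of 38 genes tested, 4 rose and 7 fell at an adjusted p under 0.05 (edgeR quasi-likelihood test, Benjamini-Hochberg over 16051 genes), 28.9% in all against 37.3% of all genes, or 10.5% higher against 16.5% and 18.4% lower against 20.8%. The median change (log2, Miwi-null over WT) was -0.08 for the 38 genes and -0.07 for all genes. The summed RNA of all members was 4361 and 4317 CPM in Miwi-null libraries and 4349 and 4477 CPM in WT libraries, and the groups overlapped. The split of directions follows the scaling between libraries. With DESeq2 size factors, or with TMM (trimmed mean of M values, a scaling of library sizes) within each assay, 7 rose and 6 fell. With library totals alone 6 rose and 4 fell, and with the coding length trend removed 7 rose and 4 fell. In the order given, these fits called 34.2%, 34.2%, 26.3% and 28.9% of members, against 36.6%, 36.8%, 35.5% and 36.1% of all genes.

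Psma8 had the largest rise of RNA among the members. It had 124.2 and 121.9 CPM in Miwi-null RNA against 69.1 and 76.1 CPM in WT RNA, a difference of 0.76 ± 0.10 (log2 ± SE, adjusted p = 0.00048, edgeR). The groups did not overlap, and the call held under all 19 alternative settings. Psmd1, the large scaffold subunit of the base, had 171.3 and 166.2 CPM in Miwi-null RNA against 103 and 118.9 CPM in WT RNA (0.61 ± 0.11, adjusted p = 0.00264, edgeR), also in every setting. Psmb1, a beta subunit with no catalytic site, had 96.2 and 97.3 CPM in Miwi-null RNA against 57 and 65.7 CPM in WT RNA (0.66 ± 0.15, adjusted p = 0.00887, edgeR). Here too the groups were apart, but the call was lost without Miwi-null RNA replicate 1 (adjusted p = 0.0527, edgeR), Miwi-null RNA replicate 2 (0.0561) or WT RNA replicate 1 (0.091). The ATPase gene Psmc6, lowest of the constitutive subunits in RNA FPKM, rose least, to 37.4 and 34.0 CPM in Miwi-null RNA against 22.8 and 30.0 CPM in WT RNA (0.44 ± 0.14, adjusted p = 0.0423, edgeR), a call lost without Miwi-null RNA replicate 1 (0.218) or 2 (0.102) or WT RNA replicate 1 (0.263, with a difference of 0.25), and with the transcripts of each gene summed (0.0567).

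The RNA of 7 genes fell, and they came from both rings of the core, the base, the lid and the chaperones. Psmb2 and Psmb3 are beta subunits with no catalytic site. Psmb2 had 26.9 and 26.7 CPM in Miwi-null RNA against 42.1 and 41.4 CPM in WT RNA, a difference of -0.64 ± 0.09 (adjusted p = 0.00108, edgeR) that was called under all 19 alternative settings. Psmb3 had 35.8 and 33.6 CPM in Miwi-null RNA against 52.1 and 47.9 CPM in WT RNA (-0.53 ± 0.12, adjusted p = 0.0107, edgeR). Psmd9, a chaperone of base assembly, had 23.2 and 27.4 CPM in Miwi-null RNA against 40.1 and 38.7 CPM in WT RNA (-0.64 ± 0.14, adjusted p = 0.00817, edgeR). In each of these the 2 Miwi-null libraries lay below both WT libraries. Psma7, the alpha subunit that PSMA8 replaces, had 26.4 CPM in both Miwi-null RNA libraries against 40.4 and 40.7 CPM in WT RNA (-0.62 ± 0.14, adjusted p = 0.00943, edgeR). Smaller falls were found for the ATPase gene Psmc5 (-0.37 ± 0.09), the ubiquitin receptor gene Psmd4 (-0.34 ± 0.09) and the lid gene Psmd12 (-0.32 ± 0.10, adjusted p = 0.0362, edgeR). Leaving out 1 RNA library ended the call of Psma7 whichever library it was (adjusted p = 0.0541 to 0.0686), and likewise that of Psmc5 (0.0539 to 0.11) and Psmd12 (0.111 to 0.237), which was called in 6 of the 19 alternative settings. The call of Psmb3 (0.0584 to 0.0913) and of Psmd4 (0.106 to 0.126) was lost without Miwi-null replicate 1, Miwi-null replicate 2 or WT replicate 1, and that of Psmd9 without Miwi-null replicate 1 (0.0885) or WT replicate 1 (0.0612).

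The footprint calls among the proteasome genes were all higher in Miwi-null testes. Of the 38 genes 7 rose, 18.4% against 12% of all genes, and none fell, against 13.3% of all genes, where 25.4% were called in either direction. Beside that count of 0, edgeR gave 1 gene lower at an unadjusted p under 0.05 (Psma6). DESeq2 called 7 higher and 0 lower, 18.4% of members against 20.9% of all genes in either direction. The change was above 0 for 29 genes and below 0 for 9, with a median of 0.16, against -0.01 over all genes. Footprints of both Miwi-null libraries lay above both WT libraries for 17 genes (28.3% of all genes), below both for 1 (29.3% of all genes), and the groups overlapped for 20 (42.5% of all genes). Summed over the members, footprints came to 12290 and 11330 CPM in Miwi-null libraries against 9463 and 10410 CPM in WT libraries.

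By class, 5 of the 7 genes with higher footprints belong to the base of the 19S particle. Of 6 ATPases 3 rose (median 0.34), of the 3 other base subunits 2 rose (median 0.41), and of 8 lid subunits none did (median 0.16, none at an unadjusted p under 0.05 and none by DESeq2). In the core 1 of 7 beta subunits rose (median 0.09), and of the 7 alpha subunits none rose or fell (median -0.12, or 0.02 without WT footprint replicate 1). With 1 library left out, alpha changes ranged from -0.34 to 0.05 for Psma1, -0.02 to 0.41 for Psma2 and -0.20 to 0.23 for Psma3. The ranges were -0.42 to 0.31 for Psma4, -0.10 to 0.15 for Psma5, -0.40 to -0.18 for Psma6 and -0.35 to -0.01 for Psma7. Summed footprints of the ATPases were 3075 and 3234 CPM in Miwi-null libraries against 2370 and 2296 CPM in WT libraries, while those of the alpha ring without Psma8 were 1383 and 1418 CPM against 1511 and 1537 CPM, with no overlap of the groups in either class. Single genes weigh heavily in both sums. Psma6, with 313 and 352.4 CPM in Miwi-null against 440.2 and 385.4 CPM in WT footprints, was the only alpha subunit whose groups did not overlap. The largest part of the ATPase sum was Psmc3, with 1552 and 1899 CPM against 1259 and 1132 CPM. Lid footprints overlapped, with 1884 and 1707 CPM in Miwi-null against 1595 and 1729 CPM in WT libraries. Differences between the classes were not tested.

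Among the ATPases, Psmc3 had 1552 and 1899 CPM in Miwi-null footprints against 1259 and 1132 CPM in WT footprints, a rise of 0.53 ± 0.11 (adjusted p = 0.00815, edgeR). Psmc2 had 428.3 and 352.2 CPM in Miwi-null footprints against 242.8 and 266.5 CPM in WT footprints (0.62 ± 0.11, adjusted p = 0.00461, edgeR), and Psmc1 had 401.2 and 316.4 CPM against 207.4 and 257.2 CPM (0.63 ± 0.14, adjusted p = 0.0138, edgeR). In all 3 the Miwi-null libraries lay above the WT libraries, while the fitted RNA differences were -0.05 ± 0.11, -0.02 ± 0.11 and 0.27 ± 0.15 and did not pass. Psmd4, the ubiquitin receptor of the base, had 365.2 and 352.7 CPM in Miwi-null footprints against 271.3 and 280.1 CPM in WT footprints (0.38 ± 0.08, adjusted p = 0.0114, edgeR), with its RNA lower. The scaffold gene Psmd1 had 249.1 and 229.5 CPM in Miwi-null footprints against 158.3 and 173.1 CPM in WT footprints (0.53 ± 0.10, adjusted p = 0.00656, edgeR), with its RNA higher by about as much. In the other scaffold gene, Psmd2, the libraries went apart within each genotype, with 1337 and 873 CPM in Miwi-null footprints against 624 and 1035 CPM in WT footprints (0.41 ± 0.25, adjusted p = 0.261, edgeR).

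In the core, Psmb1 had 564.5 and 441.9 CPM in Miwi-null footprints against 283 and 343.7 CPM in WT footprints (0.68 ± 0.14, adjusted p = 0.00897, edgeR). Psma8 footprints rose by 0.56 ± 0.09 (adjusted p = 0.00275, edgeR), to 830.4 and 790.1 CPM in Miwi-null against 524.6 and 576.7 CPM in WT libraries. Psma6, the alpha subunit with the most RNA per coding length, had the lowest change, -0.31 ± 0.11, with 313 and 352.4 CPM in Miwi-null footprints against 440.2 and 385.4 CPM in WT footprints, and did not pass (adjusted p = 0.0674, edgeR). The catalytic genes Psmb5, Psmb6 and Psmb7 had footprint differences of 0.09 ± 0.14, 0.09 ± 0.09 and -0.02 ± 0.16 and RNA differences of -0.30 ± 0.14, -0.18 ± 0.09 and -0.26 ± 0.16, none past the threshold. The 7 footprint calls were made with a dispersion shared with the RNA libraries. From the 4 footprint libraries alone edgeR called no member, against 12.7% of all genes. Adjusted p of the 7 genes then lay between 0.0639 (Psma8) and 0.129 (Psmd4) by edgeR. At an unadjusted p under 0.05, 8 genes were higher and 0 lower. Without Miwi-null footprint replicate 1 the calls of Psmc1 (0.0716) and Psmd4 (0.0508) were lost.

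**Figure D3:**
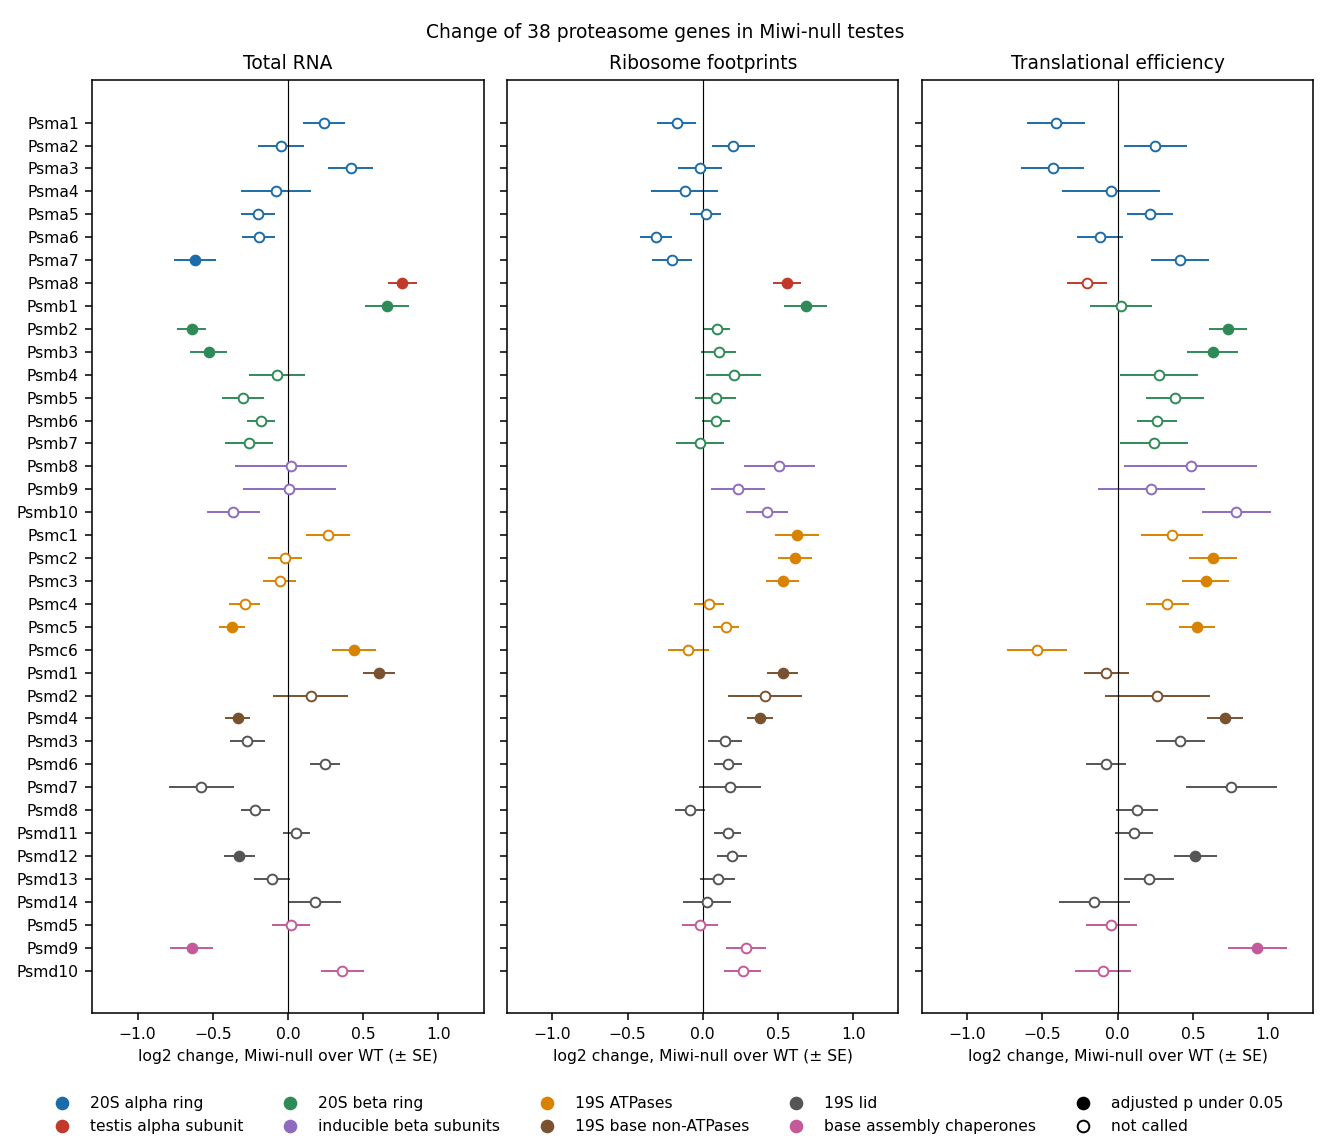
Change of 38 proteasome genes in Miwi-null over WT testes (log2 ± SE from the edgeR fit) in total RNA (left), ribosome footprints (middle) and translational efficiency (right), by subunit class; filled points have an adjusted p under 0.05. RNA calls lie on both sides of 0 (4 higher, 7 lower), while the 7 footprint calls and the 8 calls of translational efficiency all lie above it.

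Translational efficiency, tested as the interaction of genotype and assay, rose for 8 of the 38 genes (21.1%, against 7.33% of all genes) and fell for none (against 7.56%, and 14.9% of all genes called in either direction). Beside the 0, edgeR gave 12 genes higher and 1 lower (Psmc6) at an unadjusted p under 0.05, for which no share of all genes is given. DESeq2 called 7 higher and 0 lower, 18.4% of members against 13.5% of all genes in either direction. The median change was 0.26 for the members and 0.04 for all genes. For 6 of the 8, RNA was lower in Miwi-null testes: Psmb2 (TE difference 0.73 ± 0.13), Psmb3 (0.63 ± 0.17), Psmc5 (0.53 ± 0.12), Psmd4 (0.72 ± 0.12), Psmd9 (0.93 ± 0.19) and Psmd12 (0.52 ± 0.14). Of these 6 genes Psmd4 alone also had a called rise of footprints. The RNA and TE tests share the RNA counts, so a fall of RNA enters both. For the remaining pair, Psmc2 (0.63 ± 0.16) and Psmc3 (0.58 ± 0.15), footprints rose without a called RNA change. With TMM within each assay, 13.2% of members were called in TE, against 14.8% of all genes. With library totals alone it was 10.5%, against 14.5%. With replicate numbers fitted as a block, 3 members were called in TE (7.89%, against 7.71% of all genes), and both Psmc2 and Psmc3 were lost. A block with the footprint numbers crossed, chosen after seeing the data, called 21 members in both directions (55.3%, against 40.7% of all genes).

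The largest change was that of Psmd9, whose footprints were 139.6 and 123.1 CPM in Miwi-null against 96.4 and 118.5 CPM in WT libraries (0.29 ± 0.13, adjusted p = 0.146, edgeR), with RNA lower as given above. Its deposited TE was 6.74 and 5.33 in Miwi-null against 3.07 and 3.71 in WT, with no overlap. Psmd4 had a deposited TE of 2.92 and 2.97 in Miwi-null against 1.90 and 1.98 in WT, and Psmb2 one of 7.31 and 8.26 against 5.27 and 4.84. In both genes the Miwi-null ratios lay above the WT ratios. The ATPase gene Psmc6 had the lowest TE change, -0.54 ± 0.20 (adjusted p = 0.105, edgeR), with 159.7 and 150.4 CPM in Miwi-null footprints against 175.3 and 156 CPM in WT footprints. Its deposited TE was 4.78 and 5.25 in Miwi-null and 9.86 and 6.31 in WT. The lid gene Psmd7, whose protein pairs with the deubiquitinase subunit PSMD14, had a change of 0.76 ± 0.30 that did not pass (adjusted p = 0.129, edgeR).

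By class, TE rose for 3 of 6 ATPases (median 0.44), 1 of 3 other base subunits (0.26), 1 of 8 lid subunits (0.17), 2 of 7 beta subunits (0.28) and 1 of 3 chaperones (-0.04), and for none of 7 alpha subunits (-0.04, and none at an unadjusted p under 0.05 or by DESeq2). Without WT footprint replicate 2 the alpha median was 0.17, with changes of 0.61 for Psma7, -0.57 for Psma1 and -0.61 for Psma3. These calls depended on the fit more than the changes did. With any 1 library left out, the TE changes of the 8 called genes stayed above 0, between 0.38 (Psmc3) and 1.09 (Psmd9). Most or all of the 8 calls were lost when any 1 RNA library was left out, or with the Miwi-null RNA libraries summed as 1 sample. Some were lost without 1 of the Miwi-null footprint libraries. Such fits leave 1 library in a group, and fewer TE changes of all genes were called in those without an RNA library. Without WT footprint replicate 2 the TE change was 1.08 for Psmd7 (0.76 as fitted) and -0.62 for Psmc6 (-0.54 as fitted). In the authors' deposited tables, 35 members carried a log2 TE change, a value for the gene over its transcripts and not for the transcript used here. It was above 0 in both replicate tables for 19 members, below 0 in both for 7 and of mixed sign for 9, against 29.8%, 34.7% and 35.4% of 11088 genes.

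Psma8 (chromosome 18, 14706135 to 14762301, GRCm38.p6) was described apart from the constitutive core, together with Psma7 (chromosome 2, 180036367 to 180042464). In FPKM, Psma8 RNA was 137.0 and 134.9 in Miwi-null against 73.0 and 80.1 in WT libraries. Its footprints were 1026 and 1038 FPKM in Miwi-null against 710.3 and 736.2 FPKM in WT libraries. Psma8 thus ranked 2 in Miwi-null and 3 in WT footprints among the 39 genes and stood above all 7 other alpha subunits there. In RNA it ranked 7 in Miwi-null and 10 in WT libraries, below Psma6 but above the other 6.

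Of the summed FPKM of Psma7 and Psma8, Psma8 made up 82.3% and 82.1% in Miwi-null RNA against 62.9% and 65.0% in WT RNA. In footprints its share was 78.9% and 80.3% in Miwi-null against 71.5% and 68.1% in WT. The shares of the genotypes did not overlap in either assay, and the gap was wider in RNA. Psma7 footprints overlapped between the genotypes, with 220.8 and 192.8 CPM in Miwi-null against 207.9 and 268.6 CPM in WT libraries (-0.20 ± 0.13, adjusted p = 0.291, edgeR). The deposited TE of Psma8 was 7.49 and 7.70 in Miwi-null against 9.72 and 9.19 in WT, and the tested difference was -0.20 ± 0.13 (adjusted p = 0.337, edgeR). Markers of pachytene spermatocytes, the cells in which Psma8 is best known, moved with Psma8 in RNA, with 6 of 8 higher (median 0.40), and in footprints 2 of 8 were higher (median 0.03), with summed levels of 3022 and 2928 CPM in Miwi-null against 2835 and 2990 CPM in WT libraries. None of the 8 markers was at 0, and their part in the Psma8 result was not tested.

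**Figure D4:**
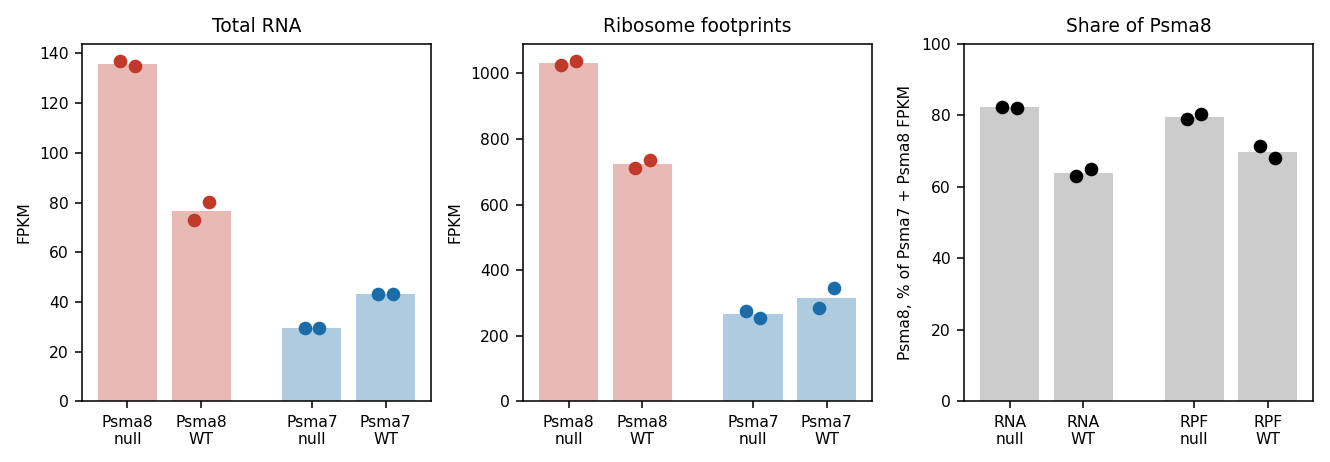
Psma8 and Psma7 in total RNA (left) and ribosome footprints (middle), in deposited FPKM, and the share of Psma8 in the sum of both (right, in %); points are libraries and bars their mean (n = 2), with Miwi-null left of WT. Psma8 is higher and its share larger in Miwi-null testes in both assays, and Psma7 footprints overlap between the genotypes.

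The inducible beta subunits stayed at low levels. Psmb8, Psmb9 and Psmb10 had 1.05 to 4.82 CPM in Miwi-null RNA and 0.94 to 6.45 CPM in WT RNA, and Psmb11, the subunit of the thymus, had 2 counts in WT RNA replicate 2 and 0 in the other 7 libraries and was not tested. Of the summed footprint FPKM of each catalytic pair, Psmb8 made up 17.1% and 10.3% in Miwi-null and 8.19% and 12.5% in WT beside Psmb5. Psmb9 made up 1.25% and 1.32% in Miwi-null and 1.31% and 1.03% in WT beside Psmb6, and Psmb10 made up 1.937% and 2.799% in Miwi-null and 2.005% and 1.502% in WT beside Psmb7. All 3 shares overlapped between the genotypes. The footprint CPM of the 3 genes did not, with Miwi-null above WT, a position held by 28.3% of all genes. Psmb8 had 18.3 and 13.0 CPM in Miwi-null against 8.99 and 12.87 CPM in WT footprints, and Psmb9 5.54 and 5.79 CPM against 5.13 and 4.48 CPM. No inducible gene was called by the edgeR fit reported or by the DESeq2 Wald test, and 1 of the 3 was higher at an unadjusted p under 0.05 in footprints and in TE and 0 in RNA by edgeR. Psmb10 came closest, with a TE difference of 0.79 ± 0.23 (adjusted p = 0.0512, edgeR), and its footprints were 15.5 and 18.2 CPM in Miwi-null against 13.0 and 12.2 CPM in WT libraries (0.43 ± 0.14, adjusted p = 0.0587, edgeR). Among the 19 alternative settings, footprints were called higher for Psmb10 in 3 and for Psmb8 in 2, and the TE of Psmb10 in 1. Footprints of 3 of 8 macrophage and immune markers rose and 1 fell, with sums of 313.9 and 310.6 CPM in Miwi-null against 262.1 and 259 CPM in WT libraries. In RNA 3 rose and 1 fell, with sums of 159.2 and 153.3 CPM in Miwi-null against 189.1 and 204.1 CPM in WT libraries. The sums do not follow most of the list. Aif1 alone had 60.25 and 57.87 CPM in Miwi-null against 109.8 and 129.5 CPM in WT RNA. Of the 8 changes 5 were above 0 in RNA (median 0.355) and 5 below 0 in footprints (median -0.093). No marker had a level of 0, and the part of these markers in the inducible genes was not tested.

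Of other genes of the pathway, 35 were listed and 33 had a test. In RNA 1 rose and 9 fell (median -0.24), where 16.5% of all genes rose and 20.8% fell. In footprints 1 rose and 8 fell (median -0.11), where 12% of all genes rose and 13.3% fell. In TE 1 rose and 4 fell (median 0.00, with 17 changes above 0 and 16 below), where 7.33% of all genes rose and 7.56% fell. The gene that rose in RNA was Psme4, which encodes the proteasome activator PA200 of testis. It had 1025 and 1019 CPM in Miwi-null RNA against 550.3 and 626.9 CPM in WT RNA (0.80 ± 0.09, adjusted p = 0.000314, edgeR), but 336.1 and 343.9 CPM in Miwi-null footprints against 409.4 and 387.1 CPM in WT footprints (-0.23 ± 0.09, adjusted p = 0.104, edgeR). Its TE fell by 1.02 ± 0.13 (adjusted p = 0.00235, edgeR). Psma8 and Psme4, both known for testis proteasomes, thus rose by like amounts in RNA, and of the pair only Psma8 passed the test in footprints, a difference between the 2 genes that was not itself tested.

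Psme1, which encodes a subunit of the interferon-induced activator, fell in RNA (-0.66 ± 0.16) and was the gene whose TE rose (0.88 ± 0.21). Its RNA call was lost without Miwi-null RNA replicate 1 (adjusted p = 0.0727, edgeR) or 2 (0.0769) or WT RNA replicate 2 (0.076). RNA also fell for Psmf1, which encodes a proteasome inhibitor (-1.39 ± 0.21), and Ddi1, which encodes a shuttle protein (-0.73 ± 0.09). Footprints of Ddi1 fell as well (-1.37 ± 0.10), and so did its TE (-0.65 ± 0.14). The TE of Ngly1, whose enzyme processes NRF1, fell by 0.82 ± 0.16. Vcp, the unfoldase that hands proteins to the proteasome, was the gene with higher footprints (0.26 ± 0.08, adjusted p = 0.0494, edgeR), a call lost under most alternatives, for example without Miwi-null footprint replicate 2 (0.14). Nfe2l1 itself had differences of -0.16 ± 0.11 in RNA, -0.16 ± 0.11 in footprints and 0.00 ± 0.16 in TE and was not called. The TE calls of Psme1, Ddi1 and Ngly1 were each lost without any 1 RNA library (adjusted p = 0.0585 to 0.117), and that of Psme4 held under every setting.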

How the data were processed

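Total RNA and ribosome footprints of testes were measured in 8 libraries, 2 for each genotype and assay, grouped by the sample titles. Tools listed in the submitters' processing notes, without roles, are STAR 2.5.0a, Bowtie 1.2.2 and cutadapt 2.5, with the build GRCm38. Neither labels nor headers name the counting program or its use of strand. The authors deposited whole-number fragment counts per transcript, per the file headers, and FPKM values computed from them, the length column and the library total. Of the lengths 84.7% are multiples of 3, so they are coding lengths. The authors deposited TE as the ratio of footprint to RNA FPKM, and the log2 of a fold change for the gene over its transcripts; how transcripts are combined is not given in the sources used here, and the sign can differ from that of the transcript used. The authors' merged counts equal the sum of both replicates in all 99671 rows, and the merged table served only for this check and for the authors' own changes.

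Counts of the transcript with the highest mean were fitted by edgeR 4.0.16 under R 4.3.3 (filterByExpr, minimum count 10 and total 15; TMM over 8 libraries; robust quasi-likelihood fit of 4 groups, 4 residual degrees of freedom; Benjamini-Hochberg over 16051 genes, threshold 0.05; limma 3.58.1 underlies edgeR). SE is the absolute log2 change over the square root of the F statistic. DESeq2 1.42.0, other scalings, no filter, summed transcripts, each assay alone, a replicate block and leaving out each library were alternatives. The fit was tested on simulated data. Members and gene lists (proteasome classes, other pathway genes, cell type markers) were chosen with earlier results of these data known. Named were Piwil1, Psma8, the catalytic and inducible pairs, members called in any comparison, the extremes of classes, and of the other pathway genes those called with the 3 largest changes each way, with Psme4 and Nfe2l1; some of these are not reported here. Shfm1 and Paaf1 were listed but had no row under that symbol.

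Replicates were compared by a chi-square per gene, which was 1.18 in Miwi-null RNA, 3.69 in WT RNA, 21.2 in Miwi-null footprints and 42 in WT footprints. The Miwi-null RNA libraries thus differed by little more than counting noise (chi-square p = 1.28e-51 over 15906 genes); they were kept as 2 replicates, and summing them as 1 sample was added as an alternative after seeing the data. The 2 libraries per group limit the precision. The SE rests on a dispersion shared by RNA and footprint libraries, so it does not give the spread within each assay or between animals.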

Additional observations from a re-analysis of the deposited data

How the results depend on the processing

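For members called in the fit reported, the calls depended on the fit more than the sign of the log2 change did. The fit reported called 11, 7 and 8 members in RNA, footprints and TE. Each assay alone gave 24 in RNA (11 higher, 13 lower), 63.2% of members against 59.3% of all genes. It gave 0 in footprints, against 12.7% of all genes. TE had 5 with TMM within each assay (13.2% of members, 14.8% of all genes). With library totals alone TE had 4 (10.5% of members, 14.5% of all genes). In both, members were called no more often than all genes, unlike the fit reported (21.1% against 14.9%). These scalings shift the median TE change of all genes to -0.02 and -0.10, against 0.04 as fitted. Replicate numbers do not pair the samples in the labels. The correlation of replicate differences was 0.00 between the RNA groups, 0.02 between assays in Miwi-null and 0.07 in WT. With a replicate block TE had 3 calls (7.89% of members, 7.71% of all genes). RNA had 9 (23.7% of members, 31.3% of all genes) and footprints 7 (18.4% of members, 19.1% of all genes). That block lost the TE calls of Psmc2 (adjusted p = 0.078, edgeR), Psmc3 (0.0874), Psmc5 (0.0655), Psmd12 (0.0964) and Psmb3 (0.0763). It also lost the RNA calls of Psmc6 (0.0795) and Psmd12 (0.0729). A block with the footprint numbers crossed, chosen after seeing that footprint replicates differ in opposite directions, gave 26 (10 higher, 16 lower; 56.7% of all genes called), 22 (19 higher, 3 lower; 51% of all genes) and 21 (18 higher, 3 lower; 40.7% of all genes). Summing the Miwi-null RNA libraries as 1 sample, added after seeing the data, gave 5 in RNA (21.8% of all genes), 7 in footprints and 0 in TE (4.07% of all genes). Removing the coding length trend, also added after seeing the data, left 11, 8 and 6. These were 28.9%, 21.1% and 15.8% of members, against 36.1%, 25% and 14% of all genes. With any 1 RNA library left out, fewer RNA and TE changes were called, among members and among all genes. Without WT footprint replicate 2 more were called, again among both. The cause was not tested. Over all settings, changes of called genes ranged from 0.69 to 0.91 for Psma8 in RNA, 0.45 to 0.81 for Psmc1 in footprints and 0.75 to 1.09 for Psmd9 in TE. Among footprint changes of all members, called or not, a sign was reversed 33 times and a call lost 9 times over the settings. Where one library was left out, the lone library of its group is assumed to vary like the others.

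Sign changes concerned comparisons in which the gene was not called in the fit reported; several of these genes were called in other settings. Psmb7 in footprints was 0.0010 with DESeq2 size factors, 0.0011 by the DESeq2 Wald test and 0.0125 without the length trend, and Psmd5 was 0.0020 and 0.0018 in the first 2 of these. Psmb1 in TE was -0.042 with TMM within each assay, -0.12 with library totals and -0.067 without the length trend, and Psmb8 in RNA was -0.039 with transcripts summed. With 1 library left out, the values in footprints ranged from -0.183 to 0.162 for Psmb7, -0.177 to 0.024 for Psmc6, -0.144 to 0.158 for Psmd5, -0.1997 to 0.042 for Psmd8, -0.021 to 0.41 for Psma2, -0.425 to 0.312 for Psma4, -0.201 to 0.235 for Psma3 and -0.088 to 0.504 for Psmd7. In TE they ranged from -0.158 to 0.175 for Psmb1, -0.178 to 0.029 for Psmd1, -0.374 to 0.053 for Psmd14, -0.276 to 0.018 for Psmd10, -0.037 to 0.47 for Psmb9, -0.413 to 0.393 for Psma4 and -0.093 to 0.677 for Psmd2, and in RNA from -0.324 to 0.28 for Psmb8. At 0.94 to 6.45 CPM in RNA, or 12 to 96 counts, depth limits Psmb8, Psmb9 and Psmb10.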
